A study of Drosophila melanogaster with 13 samples.

Results

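Abd-B only sites are stretches of the Drosophila genome with a called ChIP-Seq peak for the Hox protein Abdominal-B (Abd-B). These sites had no matching peak for the other proteins profiled in the same cell line. They were chosen from the lists of called peaks: an Abd-B peak at a q-value of 1e-10 counted when no peak at a q-value of 1e-2 in any of the 5 other lists overlapped it by at least 5% in both directions. There were 1180 such sites among the 9681 Abd-B peaks, or 12.2% (Wilson 95% interval 11.6 to 12.9), and among 34149 peaks in the 6 lists at a q-value of 1e-10. The overlaps and the Abd-B score made the selection, so both are given below as a description and without a test.

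All samples were Kc167 cells, a line derived from late female Drosophila embryos, which the study describes as free of Hox proteins of their own and without nuclear Exd and Hth. Experiment 1 profiled cells expressing AbdB-GFP, AbdA-GFP or Ubx-GFP, with 2 biological replicates each and 36 bp reads, and sequenced input chromatin with 2 replicates. Experiment 2 profiled mutant Ubx-GFP, altered at the homeodomain residues that contact DNA (2 replicates), Ubx-GFP together with Hth (2 replicates), and Ubx-GFP (1 replicate), with 100 bp reads. The fusion proteins came from transiently transfected plasmids under a copper-inducible metallothionein promoter, the cells were sorted for like GFP fluorescence, and one anti-GFP antibody was used throughout.

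Hox proteins are homeodomain transcription factors that give the segments along the body axis their identity. Ubx, Abd-A and Abd-B are the products of the bithorax complex, and Abd-B acts most posteriorly, in the rear of the abdomen and the genital segments. All bind short AT-rich sequences in vitro, and Abd-B prefers a TTAT core where Ubx prefers TAAT. Exd and Hth are homeodomain cofactors that bind DNA with Hox proteins, and Hth carries Exd into the nucleus.

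Each list holds the position and the score of each peak, where the score is the -log10 of the q-value, so that the lowest score was 10.02 in the Abd-B list. A score measures how surely a peak stands above the input, and depends on sequencing depth as well as on binding. The authors combined the replicates of each protein before they called peaks, so no value has a replicate error. The intervals given with shares are Wilson 95% intervals, which allow for the number of peaks counted and for nothing else. An Abd-B only site is a site with no called peak in the other lists, and binding under the threshold of those lists cannot be told apart from no binding. The lists do not give read depth, but the libraries differed in it: the mapping summary of the study has more reads for Abd-B than for the Ubx and Abd-A libraries sequenced beside it, and the most for Ubx with Hth.

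The rule was applied in the same way to each of the 6 lists. It found 1180 sites for Abd-B (12.2%, median score 39.4), against 205 of 7971 peaks for Ubx with Hth (2.57%; interval 2.25 to 2.94), 25 of 1793 for mutant Ubx (1.39%), 1 of 5656 for Abd-A (0.0177%) and 1 of 4830 for Ubx of Experiment 1 (0.0207%). For Ubx of Experiment 2 it found 0 of 4218 peaks (0%; interval 0 to 0.0910). Abd-B therefore had more sites of its own than the 5 other lists together. The lists were not on equal terms, since a Ubx peak could be matched in 3 further Ubx lists and an Abd-B peak in no further Abd-B list. The Abd-B library was also deeper than those of Abd-A and Ubx in Experiment 1. By the mapping summary of the study it was about as deep as Ubx of Experiment 2, and shallower than mutant Ubx and Ubx with Hth. The part of depth in these counts was not tested.

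The partner lists differed in how many Abd-B peaks they left unmatched. No partner was found for 4646 Abd-B peaks (48.0%) in the mutant list, for 2919 (30.2%) in Ubx of Experiment 2, for 2453 (25.3%) in Ubx of Experiment 1, for 1896 (19.6%) in Abd-A and for 1682 (17.4%) in Ubx with Hth. At the other end, 4659 Abd-B peaks (48.1%) had a partner in all 5 lists. A further 652 had a partner in a single list, and for 418 of these it was the list of Ubx with Hth. These 418 peaks are used below as the nearest comparison, since they too lacked any partner among Abd-A, mutant Ubx and Ubx alone.

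Abd-B only sites had lower scores than the rest of the Abd-B list. Their lowest, median and highest scores were 10.0, 39.4 and 339.9, against 10.5, 47.4 and 336 for the peaks shared only with Ubx with Hth and 10.2, 93.8 and 483 for those with a partner in all 5 lists. The middle 50% of the Abd-B only sites lay between 26.0 and 63.9. When the Abd-B list was divided into 10 parts by score, their share was 2.68% (26 of 969 peaks) in the part with the highest scores and 32.2% (312 of 968) in the part with the lowest, and it was larger in each part than in the part above it. Even so, 136 sites had a score of 100 or more, which was 4.51% of all Abd-B peaks at that level, and 16 had a score of 200 or more (2.17%).

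**Figure D1:**
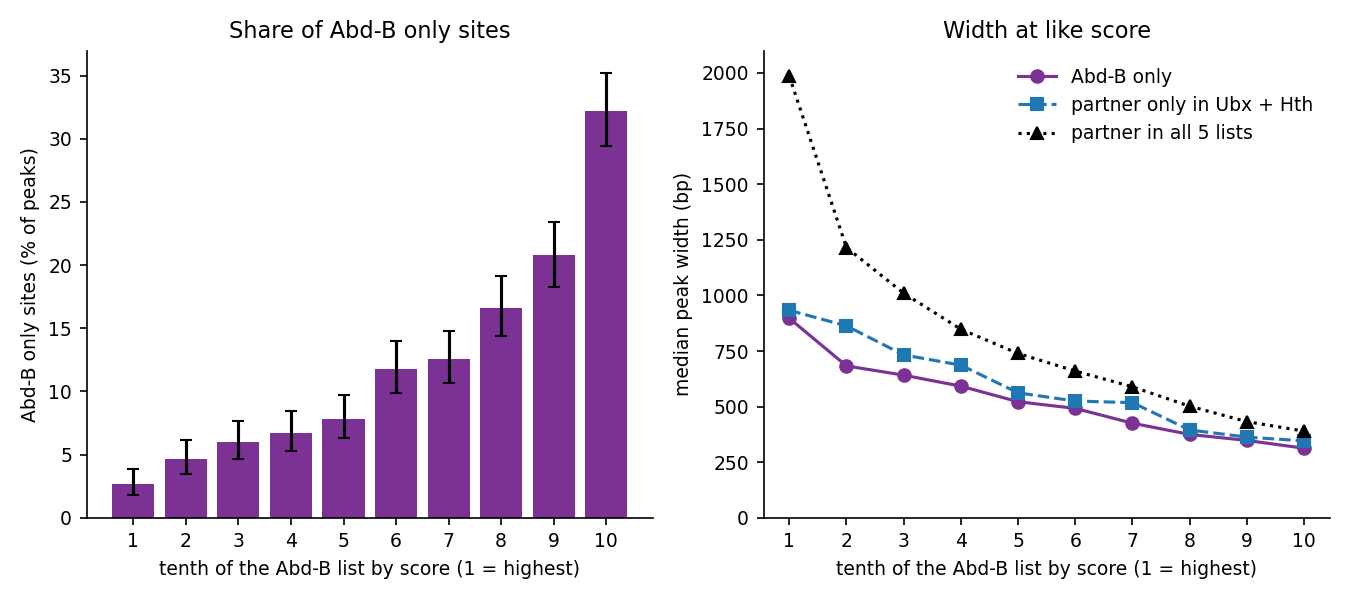
Left, the share of Abd-B peaks that are Abd-B only sites (%, bars, with Wilson 95% intervals) in 10 parts of the Abd-B list ordered by score; right, the median peak width (bp) in the same parts for Abd-B only sites, peaks with a partner only in the Ubx with Hth list, and peaks with a partner in all 5 lists. The share goes from 2.68% in the part with the highest scores to 32.2% in the part with the lowest, and the Abd-B only sites are the narrowest of the 3 sets in every part.

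The sites were also narrow. Their lowest, median and highest widths were 251, 402 and 1897 bp, against 251, 515 and 2693 bp for the peaks shared only with Ubx with Hth and 251, 876 and 9681 bp for those with a partner in all 5 lists. Only 41 sites (3.47%) were 1000 bp or wider, against 26.4% of the whole Abd-B list, and 0 of 1180 reached 2000 bp. With 3 sites taken as the upper limit for a count of 0, that allows a share of up to 0.254%, which is not a Wilson limit. Width followed score among the sites (Spearman's rho 0.64 across 1180 sites, which come from 1 pooled list), but a difference was present at like score too. In the part with the highest scores it was 897 bp, against 933 bp for peaks shared only with Ubx with Hth. Peaks with a partner in all 5 lists had 1986 bp there. That part spans scores of 181 to 483, so scores within it were not matched between the sets. In the fifth part, with scores of 68.0 to 83.1, the medians were 522, 562 and 739 bp in the same order. In the part with the lowest scores they were 313, 346 and 390 bp. Width enters the overlap that chose the sites, so these widths are a description only.

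Most Abd-B only sites had a q-value 1e-2 peak of another list within 10 kb. The gap, counted as the bases between the facing edges of 2 peaks, had a median of 1825 bp from a site to the nearest q-value 1e-2 peak of any of the 5 lists. Of the 1180 sites, 395 (33.5%) had such a peak within 1 kb and 1088 (92.2%) within 10 kb. The remaining 92 (7.80%; interval 6.40 to 9.47) were more than 10 kb from every peak of the 5 lists, and 1 site was more than 50 kb away. The 7.80% became 11.9% without the mutant list and 15.9% with the Experiment 1 lists alone, where more sites qualified, and 22.0% with gaps to q-value 1e-10 peaks, to which the median gap was 3770.0 bp. No share over other positions of the genome was computed, so these distances are not set against a background. The 92 sites resembled the others in score (median 37.8, against 39.5 within 10 kb) and in width (392.5 bp, against 403 bp). Across the 1180 sites, score and gap were unrelated in rank (Spearman's rho -0.0029).

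The lists differed in how near they came. The median gap was 2379.5 bp to Ubx with Hth, 3495 bp to Abd-A, 3758 bp to Ubx of Experiment 1, 4114 bp to Ubx of Experiment 2 and 4429.5 bp to mutant Ubx. Ubx with Hth held the nearest peak for 515 sites (43.6%), Abd-A for 244 (20.7%), the mutant for 188 (15.9%), and Ubx of Experiments 2 and 1 for 116 and 109. For 8 sites, lists were tied. Ubx with Hth also had the longest list, with 11698 peaks at a q-value of 1e-2, and the 4 other lists held 8604 to 9346.

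**Figure D2:**
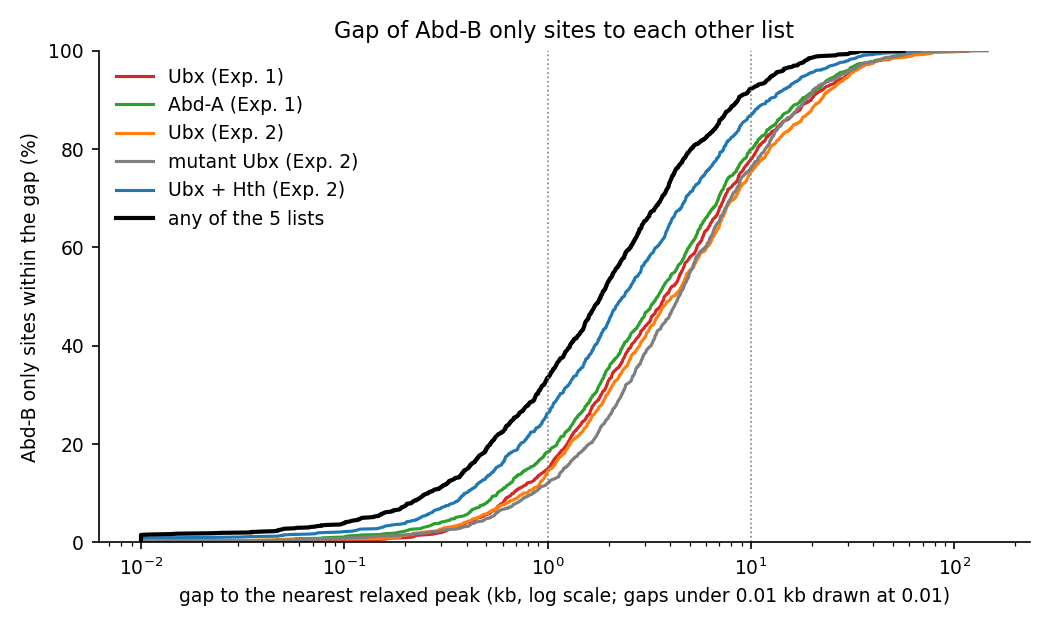
Cumulative share of the 1180 Abd-B only sites (%) against the gap to the nearest q-value 1e-2 peak (kb, log scale), for each of the 5 other lists and for the nearest peak of any of them. The curve for Ubx with Hth lies left of those for the other single lists (median 2379.5 bp, against 3495 to 4429.5 bp), and 92.2% of sites lie within 10 kb of some peak.

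Compared with the peaks shared only with Ubx with Hth, Abd-B only sites lay farther from the lists in which neither set had a partner. The median gap to Abd-A was 3495 bp for Abd-B only sites and 1648 bp for the peaks shared with Ubx with Hth. For Ubx of Experiment 1 the medians were 3758 and 1896 bp, for Ubx of Experiment 2 they were 4114 and 2030.5 bp, and for mutant Ubx 4429.5 and 3087 bp, with the Abd-B only sites given first each time. An Abd-A peak lay within 1 kb of 18.4% of Abd-B only sites, against 37.3% of the other set. The direction was the same with lists at a q-value of 1e-10, where the median gap to Abd-A was 5937 bp for Abd-B only sites and 4165 bp for the other set. The narrower width of the Abd-B only sites moves with this comparison, and its part in the difference was not tested.

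The 10 highest-scoring sites ranked between 63 and 449 of the 9681 Abd-B peaks and were 838 to 1606 bp wide. Coordinates are those of BDGP release 5. Because a gene annotation of that release was not used here, no genes are assigned to them.

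The strongest Abd-B only site ran on 3R from 17971696 to 17972678, with a score of 339.9 and rank 63 in the Abd-B list. Its nearest peaks lay 1808 bp away in Ubx with Hth, 1864 bp in Abd-A, 2091 bp in the mutant, 11822 bp in Ubx of Experiment 2 and 11999 bp in Ubx of Experiment 1. The nearest of them had a score of 11.9, and another stringent Abd-B peak lay 818 bp from the site. The second site, on 3L from 19839524 to 19840444 (score 333.3, rank 78), was different, with a peak of every list close by: at 306 bp in Ubx of Experiment 2, 327 bp in Ubx with Hth, 419 bp in Abd-A, 572 bp in Ubx of Experiment 1 and 700 bp in the mutant. The third, on 2R from 8611996 to 8613601 (score 287.5, rank 203), lay 619 bp from Ubx with Hth, 649 bp from Abd-A and 664 bp from Ubx of Experiment 1, but 6047 bp from Ubx of Experiment 2 and 6081 bp from the mutant. It was the widest of the 10, at 1606 bp.

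On 3L, the fourth site ran from 11331588 to 11332522 (score 277.3) with Ubx with Hth at 1297 bp and the 4 other lists at 7398 to 10101 bp. The fifth, from 17617281 to 17618154 on the same arm (score 272.8), had Ubx with Hth at 801 bp, Abd-A at 823 bp, Ubx of Experiment 2 at 897 bp, Ubx of Experiment 1 at 1919 bp and the mutant at 2314 bp. For the sixth, on 3R from 10292492 to 10293329 (score 254.0), the gap was 494 bp to Ubx with Hth and 2974 to 5447 bp to the rest. In each of these, and for the first and the third site, the list of Ubx with Hth came nearest.

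The seventh site stood apart from the 5 other lists, though not from other Abd-B only sites. It lay on 2L from 5785335 to 5786633 (score 252.1, rank 368), and the gaps were 10761 bp to Ubx with Hth, 11197 bp to Abd-A, 11221 bp to Ubx of Experiment 1, 13081 bp to Ubx of Experiment 2 and 13819 bp to the mutant. It was the only site of the 10 more than 10 kb from all 5 lists, and its nearest Abd-B peak, 4296 bp away, was also an Abd-B only site. The eighth (3R, 22272018 to 22273097, score 248.9) had gaps of 3164 to 5459 bp and the ninth (2L, 20669884 to 20670838, score 237.9) gaps of 3436 to 10743 bp. The tenth (3L, 8762633 to 8763552, score 237.8) had Abd-A, Ubx of both experiments and Ubx with Hth at 1156 to 1297 bp, and the mutant at 2923 bp. Of the 10 sites, 4 had a peak of another list within 1 kb.

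**Figure D3:**
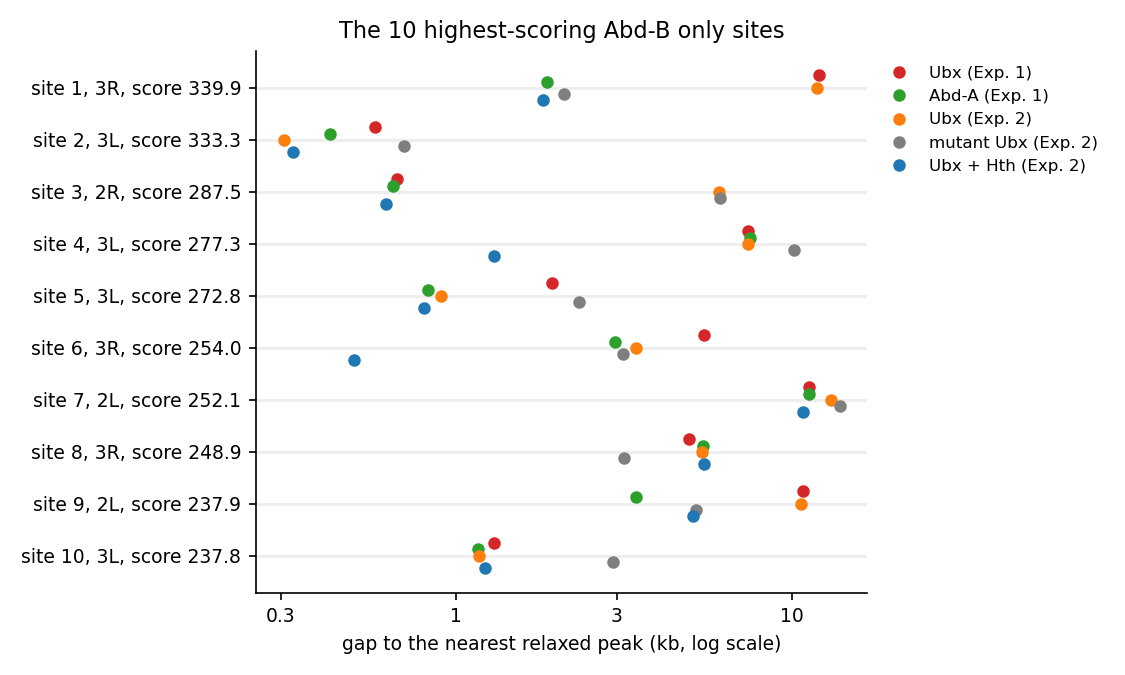
Gap (kb, log scale) from each of the 10 highest-scoring Abd-B only sites to the nearest q-value 1e-2 peak of each of the 5 other lists, with 1 point for each list. Site 2 has all 5 lists within 700 bp, and site 7 has none within 10761 bp.

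Other sites named by their position or shape had lower scores. The strongest on X ran from 13661038 to 13661643 (score 209.2, rank 664), with gaps of 3511 to 3973 bp. The strongest on chromosome 4 ran from 514620 to 515043 and had a score of 43.22, with gaps of 3429 to 3520 bp. At both places the 5 lists lay almost equally far off. The widest of all the sites, 1897 bp, lay on 2L from 16455935 to 16457831 (score 221.5), and its nearest peak, of Abd-A, was 4350 bp away. The 3 sites farthest from any other list had scores on both sides of the median of 39.4. They lay on 3L from 10218269 to 10218639 (score 15.93, gaps of 56306 to 59163 bp), on 3R from 2435632 to 2435969 (score 38.11, gaps of 34867 to 36204 bp) and on 3L from 6427264 to 6427647 (score 60.46, gaps of 33469 to 33619 bp).

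A part of the sites belonged to wider Abd-B peaks that did reach other lists. Every stringent Abd-B peak lay inside a peak of the Abd-B list at a q-value of 1e-2. For 167 Abd-B only sites (14.2%) that wider Abd-B peak had a partner in another list. Counted over all the Abd-B only sites, for 113 the wider Abd-B peak also held another stringent Abd-B peak that had a partner. Of the 10 highest-scoring sites, 3 were among the 167, namely those at 19839524 on 3L, 8611996 on 2R and 17617281 on 3L. These 167 sites had a median score of 36.1 and a median gap of 241 bp, against 40.0 and 2280.0 bp for the 1013 sites whose wider Abd-B peak had no partner either. Leaving them out, an alternative chosen after seeing the data, gave 10.5% of the Abd-B list in place of 12.2%.

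At the limit of 5% overlap, 14 sites shared at least 1 base with a peak of another list, 6 of them with Ubx with Hth. Just inside the limit was a site on X from 10681491 to 10681748, with 4.96% overlap in Abd-A. So was a site on 3R from 21710438 to 21710894, with 3.82% in Ubx with Hth. Each percentage is the smaller of the 2 covered shares. The X site shared 208 of its 258 bp with a wider Abd-A peak, and the 3R site 81 of its 457 bp. Just outside it were peaks on X from 16699637 to 16699956 (5.74% in Ubx of Experiment 1) and from 8774843 to 8775131 (5.97% in the same list). At the limit of score, the 2 lowest sites both had 10.02, on 2L from 18653382 to 18653662 and on 3R from 337931 to 338343. The nearest unmatched Abd-B peaks below it scored 9.99969 on 2R and 9.96061 on 3L.

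The X chromosome and chromosome 4 held smaller shares of Abd-B only sites than the large autosomal arms. On X they were 135 of 1636 Abd-B peaks (8.25%; interval 7.01 to 9.68) and on chromosome 4 they were 4 of 88 (4.55%; 1.78 to 11.1), against 1041 of 7957 (13.1%; 12.4 to 13.8) on 2L, 2R, 3L and 3R together. The single arms had 249 of 1704 on 2L (14.6%), 276 of 2028 on 3L (13.6%), 297 of 2335 on 3R (12.7%) and 219 of 1890 on 2R (11.6%). The interval of X lay below that of each of these 4 arms, while the interval of chromosome 4 rests on 88 peaks and reached that of 2R. The median score of all Abd-B peaks was 64.8 on X and 68.4 on the 4 arms. Among the higher-scoring 50% of Abd-B peaks (a score of about 68.0 or more) the share was 3.73% on X against 5.99% on the 4 arms, and among the lower-scoring 50% it was 12.4% against 20.3%, so X had the smaller share at both levels of score. Peaks shared only with Ubx with Hth made up 3.55% of Abd-B peaks on X and 4.51% on the 4 arms, and peaks with a partner in all 5 lists 54.8% and 46.9%.

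**Figure D4:**
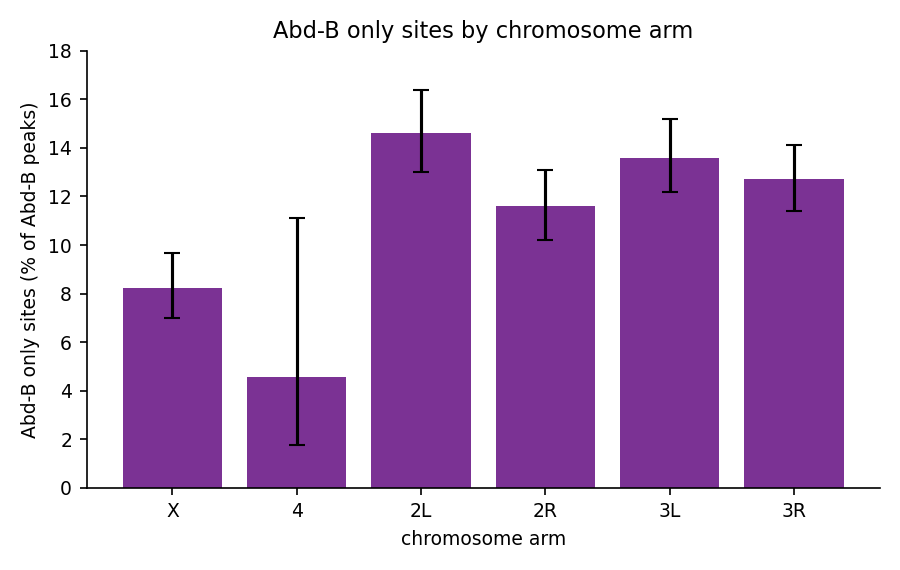
Abd-B only sites as a share of the Abd-B peaks on each chromosome arm (%, bars), with Wilson 95% intervals that cover counting only. X (8.25%) lies below 2L, 2R, 3L and 3R (11.6% to 14.6%), and chromosome 4 rests on 88 peaks.

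Along the arms the share varied as well. When each arm was cut into 5 equal stretches up to its last Abd-B peak, the share on the large autosomal arms lay between 8.83% (28 of 317 peaks, the last stretch of 3L) and 21.3% (54 of 253, the fourth stretch of 2L). The middle stretch of 3L, with 82 of 407 peaks (20.1%; interval 16.5 to 24.3), and the fourth stretch of 3R, with 93 of 563 (16.5%; 13.7 to 19.8), were also high. On X the 5 stretches were closer together, at 6.27% to 8.89%.

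Within the Abd-B list, 778 of the sites had no other Abd-B only site within 10 kb, yet the sites had one another as neighbours more often than partnered Abd-B peaks had them. The nearest Abd-B peak of any kind lay a median of 2310.0 bp from an Abd-B only site, against 1674 bp for Abd-B peaks with a partner, and 85.5% of the sites had one within 10 kb, against 91.7%. That neighbour was itself an Abd-B only site for 260 Abd-B only sites (22.0%), against 804 partnered Abd-B peaks (9.46%), where Abd-B only sites were 12.2% of the list. For the 954 sites with a partnered Abd-B peak within 10 kb, the site had the higher score in 249 cases (26.1%), and in 443 (46.4%) the neighbour was a peak with a partner in all 5 lists. Such peaks made up 54.8% of all Abd-B peaks with a partner. At the other extreme, 171 sites had no other Abd-B peak of any kind within 10 kb.

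Another Abd-B only site lay within 10 kb for 402 of the 1180 sites (34.1%; interval 31.4 to 36.8), and an Abd-B only site lay within 10 kb of 2022 of the 8501 partnered Abd-B peaks (23.8%). The 34.1% moved with the number of sites: it was 59.2% with partners sought only at a q-value of 1e-10, 52.2% with the Abd-B list at 1e-2 and 19.3% in the higher-scoring 50% of the Abd-B list. Joined at gaps of up to 10 kb, the 402 sites formed 172 runs, of which 129 had 2 sites, 33 had 3, 6 had 4, 3 had 5 and 1 had 6. The longest run by number lay on 3L from 15179523 to 15195380, over 15858 bp. Its 6 sites had scores of 32.6, 17.1, 33.4, 39.8, 21.4 and 33.6 in order along the arm. All were below 68.0, the median score of the Abd-B list, and no other stringent Abd-B peak lay among them. Abd-A and Ubx alone, in either experiment, had no peak there at a q-value of 1e-2. The mutant had 1 (score 4.40) and Ubx with Hth had 1, from 15185477 to 15186001 (score 46.4), which lay 156 bp from the second site.

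**Figure D5:**
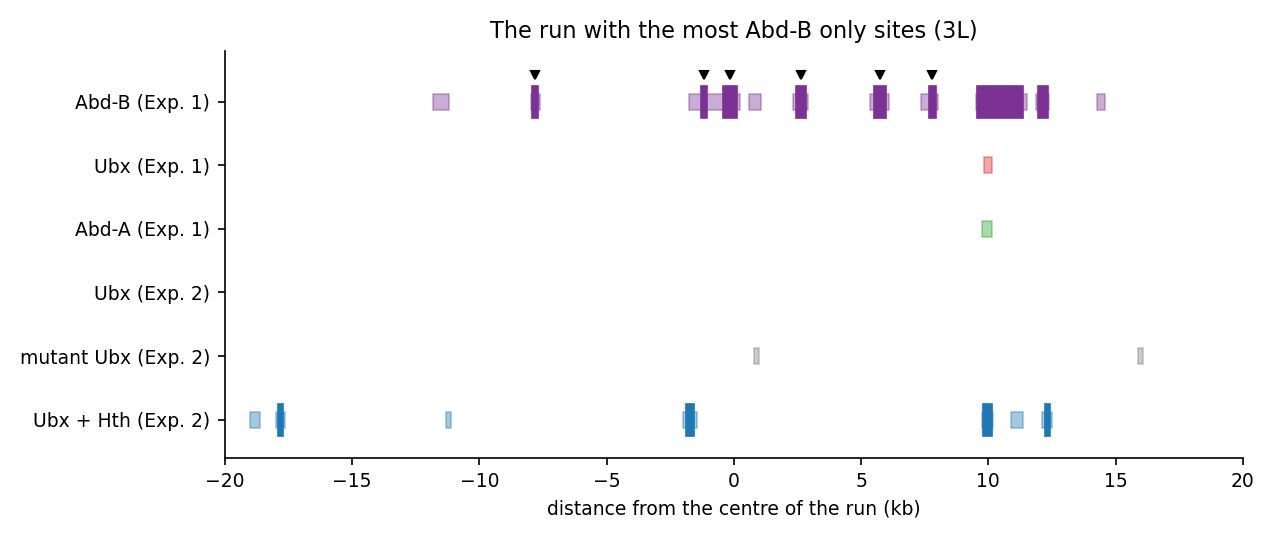
Called peaks within 20 kb of the centre of the run with the most Abd-B only sites, on 3L, with 1 lane for each of the 6 lists; tall dark boxes are peaks at a q-value of 1e-10, low pale boxes peaks at 1e-2, and triangles mark the 6 Abd-B only sites. No peak of Abd-A or of Ubx alone lies within the run, and mutant Ubx and Ubx with Hth have 1 peak each there. Partnered Abd-B peaks begin to its right.

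The 3 runs of 5 sites lay on 2L from 5209774 to 5235889, on 3R from 17875626 to 17892373 and on 2R from 15258168 to 15277643. The run on 3R held no other stringent Abd-B peak and no peak of Ubx, Abd-A or the mutant, only 2 of Ubx with Hth. Its site from 17887791 to 17888398 shared bases with a Ubx with Hth peak, under the 5% limit. The 5 sites of this run scored 47.1 to 80.1. The run lay on the same arm as the strongest Abd-B only site of all. The runs on 2L and 2R were interspersed with 3 and 2 partnered Abd-B peaks, with 2 sites above a score of 100 on 2L (139 and 116) and 1 on 2R (125) beside weaker ones.

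The number of Abd-B only sites depended on the lists in which partners were sought. With partners only at a q-value of 1e-10 it was 3103, with any peak within 1 kb counted as a partner it was 785, and with Ubx with Hth, which the study sequenced most deeply, left out of the partner lists it was 1598. On X the share stayed below that of the 4 large autosomal arms in 11 of 11 alternative settings, at 0.623 to 0.793 times it, a comparison added after seeing the data.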

How the data were processed

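Immunoprecipitated DNA and a combined input were sequenced as paired reads. According to the methods and the processing notes, the authors mapped reads to BDGP release 5 (dm3) with Bowtie 1.0.1, kept unique matches, handled alignments with SAMtools 0.1.19, pooled replicates (Ubx of Experiment 2 had 1), filtered out reads from plasmid-borne Hox and Hth exons with bedtools 2.19.1, and called peaks with MACS2 2.1.0.20140616 against the Experiment 1 input, so the 100 bp libraries had a 36 bp control. The deposited score is the -log10 of the q-value, and each profile has a list at 1e-10 and at 1e-2. The lists hold no depth, and all 12 lists share 1 input.

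Peaks were compared in python 3.11.15 with numpy 2.4.6, pandas 2.3.3 and scipy 1.17.1, and drawn with matplotlib 3.10.9. A partner needed a reciprocal overlap of at least 5%, the study's own minimum, and bedtools 2.31.1 gave the same peaks in 10 of 10 comparisons. The overlap and gap code was tested on simulated data. The sites and rules were chosen with earlier results of these data known. Sites named are the 10 with the highest scores, the strongest on each arm, the widest, the 3 farthest from other lists, the largest run, and those beside each threshold. The other runs of 5 sites were added after their values were seen. Peaks are not replicates, so no test was made. Alternatives changed the q-values, the minimum overlap, the reach, the partner lists, the part of the Abd-B list used and the distances. The planned descriptions of sequence content and of the Hox protein sequences were not made, since neither a release 5 genome nor protein sequences were used here.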

Additional observations from a re-analysis of the deposited data

How the results depend on the processing

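No paired analysis was possible because each peak list came from pooled replicates, which also meant that single replicates could not be left out. The 6 main results (1180 sites, 12.2% of the list, a median score of 39.4, a median width of 402 bp, 34.1% with another site within 10 kb and 7.80% over 10 kb from every other list) were recomputed to 71 alternative values, of which 31 stayed within the counting interval (for the number of sites, within 1.5 times it) and 40 did not. An overlap of 1 bp or merging of peaks closer than 100 bp left all 6 within it. With the Abd-B list at a q-value of 1e-2 there were 2919 sites (23.7%) with a median score of 14.5 and width of 436 bp, and 52.2% had another within 10 kb. With partners only at 1e-10 there were 3103 (32.1%), of which 59.2% had another within 10 kb and 16.4% were over 10 kb from other lists. A reciprocal overlap of 50% gave 1971 sites (20.4%), a median score of 41.3, a width of 454 bp, and 49.4% and 4.67% for the 2 distance shares. Counting a peak within 1 kb as a partner gave 785 (8.11%), with 28.0% and 11.7%. The higher-scoring 50% of the Abd-B list gave 270 (5.58%), a median score of 100.4, a width of 612 bp, and 19.3% with another within 10 kb. Without the list of Ubx with Hth there were 1598 sites (16.5%), a width of 432 bp, 44.5% and 9.51%. Without the mutant list 11.9% were over 10 kb away. With only the Experiment 1 lists there were 1749 (18.1%), a score of 41.1, a width of 429 bp, 46.0% and 15.9%. Distances of 5 and 20 kb gave 25.2% and 48.8% with another site near and 20.3% and 1.44% away from other lists, and gaps to q-value 1e-10 peaks gave 22.0%. Requiring that the wider Abd-B peak also have no partner, added after seeing the data, gave 10.5% of the list. These settings change which peaks enter by construction, and no other cause was tested.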

Other observations

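The Abd-B list at a q-value of 1e-2 held unmatched peaks with no stringent Abd-B peak inside, which enter only where that list stands in for the stringent one. Of its 12322 peaks, 3716 held no stringent Abd-B peak, and 1925 of these (51.8%) had no partner in the 5 other lists. They included 978 peaks with a score of 10 or more, with a median score of 14.5 and a highest score of 44.7, although a score of 10 is the limit of the stringent list. The narrowest peak was 251 bp wide in both Abd-B lists, and these 978 peaks had a median width of 383 bp at a q-value of 1e-2. Whether a minimum width kept them out of the stringent list was not tested.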
